A study of Mus musculus with 10 samples.

Results

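The 6 genes described here encode metabotropic glutamate receptors and were taken by their symbols, Grm2, Grm3, Grm4, Grm5, Grm7 and Grm8, from a count table of 29883 genes. RNA was measured in the nucleus accumbens (NAc), a part of the ventral striatum, of ethanol-naive male mice of 2 inbred strains, C57BL/6J (B6) and DBA/2J (D2), at 9 weeks of age. Each strain had 5 mice with 1 library per mouse, and the labels name no transgene or treatment. The comparison asks how the basal NAc transcriptome differs between strains that differ in their behavioral responses to ethanol. The 10 libraries held 96977262 to 116776714 counts.

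Metabotropic glutamate receptors are G protein-coupled receptors that tune synaptic transmission more slowly than the ion channels opened by glutamate. Group I receptors, here Grm5, couple to Gq and phospholipase C and lie mainly on the postsynaptic side. Group II (Grm2 and Grm3) and group III (Grm4, Grm7 and Grm8) couple to Gi/o, lower cyclic AMP and act largely as brakes on transmitter release. Striatal projection neurons receive dense glutamatergic input from cortex, amygdala, hippocampus and thalamus, and Grm5 is prominent in these neurons. Grm3 is also found in astrocytes, and Grm4 is known at the terminals of striatal projection neurons.

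The 6 genes share a protein family but little exact sequence. The longest run of identical coding bases in any pair was 27, between Grm3 and Grm4, so that reads longer than this run can be placed at either gene by the bases that follow. That run is shown for both genes beside the aligned stretch of the other 4, because it is the longest exact run of any pair. Capitals mark the 20 of 27 bases that are the same in all 6 genes and lower case marks the rest.
Grm5, chr7:87724031-87724057, plus strand: GctTTcACcATGTACACaACcTGcATC
Grm2, chr9:106524401-106524427, minus strand: GgcTTtACcATGTACACcACcTGtATC
Grm3, chr5:9561509-9561535, minus strand: GgcTTcACcATGTACACcACcTGcATC
Grm4, chr17:27653561-27653587, minus strand: GgcTTcACcATGTACACcACcTGcATC
Grm7, chr6:111335961-111335987, plus strand: GgaTTcACtATGTACACgACtTGtATC
Grm8, chr6:27363138-27363164, minus strand: GgaTTtACcATGTACACcACgTGcATC
Positions are those of GRCm39, the build the counts were made on, and all 6 windows lie in coding exons. Against Grm4, the window of Grm7 differed at 5 bases, those of Grm5 and Grm8 at 3 each and that of Grm2 at 2. Over whole aligned coding sequences, identity between pairs ranged from 60.7% to 70.2%, and the closest pair was Grm7 and Grm8, both of group III.

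The libraries carried the defining genes of striatal projection neurons. Drd1, a dopamine receptor gene of the direct pathway, stood at 216 ± 25.6 CPM (counts scaled to a common library total) in B6 and 207 ± 14.7 in D2 (SD, n = 5 each). The 8 markers of these neurons summed to 3615 to 4785 CPM in B6 and 3058 to 3727 in D2, and 5 of the 8 were lower in D2, beside 9.83% of all genes. A set of 8 markers of cortical projection neurons varied more between mice, from 235 to 1060 summed CPM in B6 and from 372 to 748 in D2. B6 replicates 3 and 5 stood apart, with 1042 and 1060 summed CPM, while B6 replicates 1, 2 and 4 held 235, 246 and 316. Slc17a7, which encodes a vesicular glutamate transporter of cortical neurons, stood at 774 and 791 CPM in those libraries and at 57.2 to 129.99 in the other B6 mice. None of the 8 cortical markers differed between strains in edgeR's test with Benjamini-Hochberg adjustment. In bulk tissue, fewer cells of a type and less RNA per cell cannot be told apart. Of the other lists, 3 of 8 astrocyte, 4 of 6 oligodendrocyte, 1 of 4 oligodendrocyte precursor, 2 of 6 microglial and 0 of 5 endothelial markers differed between strains, beside 18.3% of all genes. The 4 oligodendrocyte markers and the precursor marker were lower in D2, and 1 astrocyte and 1 microglial marker were higher. The median log2 fold change of the 6 oligodendrocyte markers was -0.35, and the strains overlapped for each of the 6. Their sum was highest in B6 replicates 3 and 5, at 6202 and 6171 CPM. It was 4293, 5149 and 4532 CPM in B6 replicates 1, 2 and 4, and 3242 to 4734 in D2.

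The receptors spanned a wide range of levels. A level here is the CPM per kilobase of the gene's merged exons, which allows genes of different length to be set side by side. Grm5 was highest, at a mean level of 39.2 CPM per kilobase over the 10 mice, rank 644 of 17331 protein-coding genes. Grm7, a presynaptic receptor with low affinity for glutamate, followed at 17.2 (rank 1915), Grm4 at 13.1 (rank 2628) and Grm3 at 12.99 (rank 2647). Grm2 lay at 1.43 (rank 10669) and Grm8 at 0.781 (rank 11896). The order did not follow the receptor groups: Grm2 lay far below Grm3 and Grm8 far below Grm4 and Grm7.

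Differences within each mouse were taken on the log2 scale of level and are given as mean ± SD over the 10 mice. Grm5 exceeded Grm7 by 1.19 ± 0.081 (2.28-fold), and Grm7 exceeded Grm4 by 0.40 ± 0.089. Grm3 exceeded Grm2 by 3.25 ± 0.44 on this scale (9.49-fold), and Grm2 exceeded Grm8 by 0.85 ± 0.15 (1.80-fold). Each of these 4 steps held in 10 of 10 mice (two-sided exact sign-flip permutation test, p = 0.00195, the smallest this test allows, adjusted p = 0.00244 over 5 neighbor pairs). The neighbors were set by the mean levels of these same 10 mice, a choice that the p-values do not account for. The remaining neighbors, Grm4 and Grm3, were not separated, with Grm4 above Grm3 in 5 of 10 mice (exact p = 0.838). Grm3 was above Grm4 in 4 of 5 B6 mice and Grm4 above Grm3 in 4 of 5 D2 mice, a split that was noticed in the values and not tested.

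**Figure D1:**
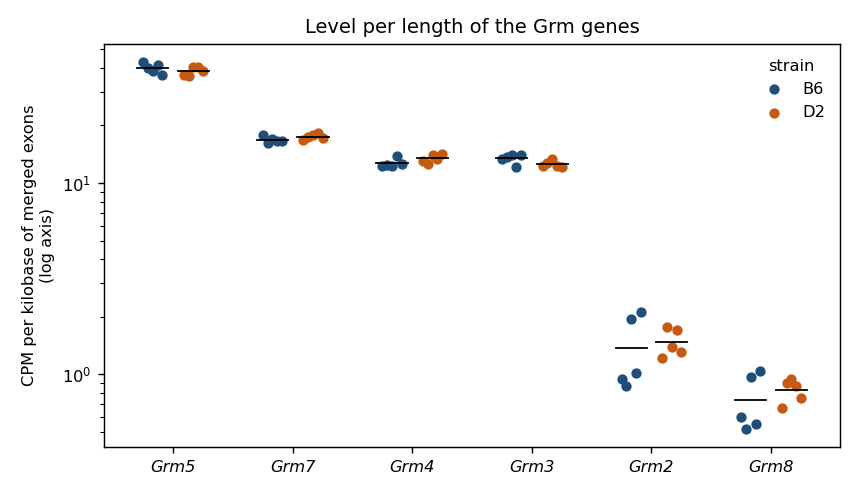
Level of each of the 6 receptor genes in each mouse, as CPM per kilobase of merged exons on a log axis, with B6 in blue, D2 in orange and the strain means as bars. Grm5 was highest and Grm2 and Grm8 lowest of the 6 receptor genes in both strains, and the 2 upper B6 points of Grm2 and Grm8 are replicates 3 and 5.

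None of the 6 receptor genes differed between strains at an adjusted p under 0.05 in edgeR's quasi-likelihood test with Benjamini-Hochberg adjustment, where 18.3% of all genes did. At an unadjusted p under 0.05 there was 1 of the 6 (Grm3) against 29.4% of all genes, and DESeq2 likewise gave 0 of 6 adjusted and 1 of 6 unadjusted. None had strain values that did not overlap, a pattern shown by 16.0% of all genes (7.39% higher and 8.63% lower in D2). The median absolute log2 fold change was 0.097 over the 6 receptors, 0.099 over the 15388 genes averaging 100 counts or more and 0.20 over all genes. Changes are given as D2 against B6, so that a negative log2 fold change is lower in D2.

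Grm5 lies on chromosome 7 from 87233376 to 87784594, plus strand. Its values were 459, 429, 412, 443 and 395 CPM in B6 replicates 1 to 5 and 392, 389.6, 433, 436 and 415 CPM in the D2 replicates. The strains overlapped over most of their range, with means of 428 ± 25.0 and 413 ± 21.99 CPM (SD, n = 5 each). The log2 fold change was -0.05 (standard error 0.049), with a 95% interval of -0.16 to 0.06 (edgeR, Benjamini-Hochberg adjusted p = 0.569).

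Of the group II genes, Grm2 lies on chromosome 9 from 106520294 to 106533870, minus strand. Its values were 6.68, 6.14, 13.7, 7.20 and 15.0 CPM in B6 replicates 1 to 5 and 8.597, 12.6, 9.88, 12.1 and 9.23 CPM in the D2 replicates. B6 replicates 3 and 5 were the highest of all 10 mice and the other B6 mice the lowest, with every D2 mouse in between. The coefficient of variation was 43.6% in B6 and 16.8% in D2. The log2 fold change was 0.10 (standard error 0.24), with a 95% interval of -0.42 to 0.63 (edgeR, Benjamini-Hochberg adjusted p = 0.834).

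Grm3 lies on chromosome 5 from 9534069 to 9776088, minus strand. Its values were 90.1, 92.6, 95.03, 82.2 and 95.1 CPM in B6 replicates 1 to 5 and 82.7, 85.7, 89.9, 82.9 and 81.6 CPM in the D2 replicates. B6 replicates 1, 2, 3 and 5 lay above all D2 mice, and B6 replicate 4 lay among the D2 values. Means were 91.0 ± 5.35 CPM in B6 and 84.6 ± 3.33 in D2 (SD, n = 5 each), a log2 fold change (D2 against B6) of -0.11 (standard error 0.044), with a 95% interval of -0.20 to -0.01. The adjusted p was 0.128 (edgeR, Benjamini-Hochberg). Without B6 replicate 4, the lowest B6 value, the log2 fold change was -0.14 and passed the threshold (edgeR, Benjamini-Hochberg adjusted p = 0.0219). In the other 9 fits that left out 1 mouse, Grm3 did not pass. Among the 8 astrocyte markers, Gja1 was higher and Aqp4 and Aldh1l1 were lower in D2, with summed values of 1130 to 1206 CPM in B6 and 1082 to 1189 in D2, and their part in the Grm3 values was not tested.

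Of the group III genes, Grm4 lies on chromosome 17 from 27641361 to 27740377, minus strand. Its values were 84.3, 84.7, 83.7, 94.7 and 85.5 CPM in B6 replicates 1 to 5 and 89.5, 86.1, 96.4, 91.8 and 96.8 CPM in the D2 replicates. All D2 mice lay above 4 of the B6 mice, and B6 replicate 4 lay within the D2 range. The log2 fold change was 0.09 (standard error 0.045), with a 95% interval of -0.01 to 0.19 (edgeR, Benjamini-Hochberg adjusted p = 0.207).

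Grm7 lies on chromosome 6 from 110622542 to 111544191, plus strand. Its values were 105.1, 95.3, 99.8, 98.0 and 98.2 CPM in B6 replicates 1 to 5 and 98.5, 102.9, 104.9, 107.8 and 100.8 CPM in the D2 replicates. The strains overlapped, with B6 replicate 1 among the highest D2 mice. The log2 fold change was 0.05 (standard error 0.036), with a 95% interval of -0.03 to 0.13 (edgeR, Benjamini-Hochberg adjusted p = 0.379).

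Grm8 lies on chromosome 6 from 27275118 to 28135177, minus strand. Its values were 5.90, 5.15, 9.62, 5.43 and 10.3 CPM in B6 replicates 1 to 5 and 6.58, 8.95, 9.32, 8.64 and 7.402 CPM in the D2 replicates. As for Grm2, B6 replicates 3 and 5 were the highest of all mice and the other B6 mice the lowest. The log2 fold change was 0.17 (standard error 0.19), with a 95% interval of -0.25 to 0.59 (edgeR, Benjamini-Hochberg adjusted p = 0.644). For Grm5, Grm3, Grm4 and Grm7, by contrast, the 95% intervals lay between -0.203 and 0.19 on the log2 scale.

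**Figure D2:**
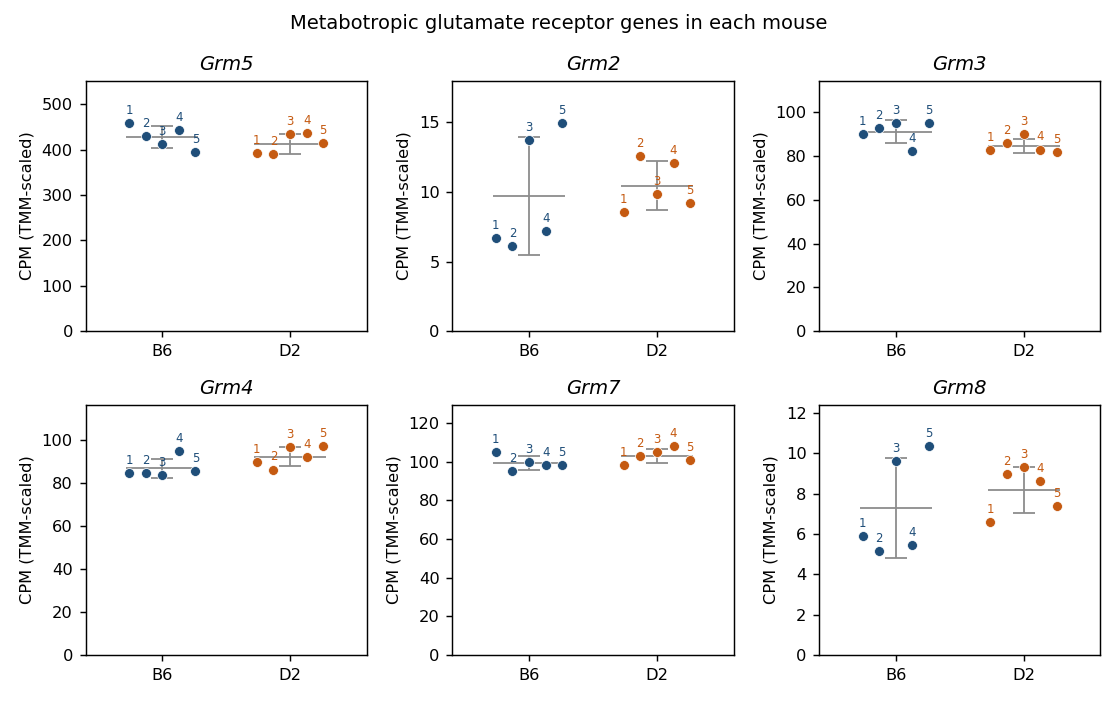
CPM of each receptor gene in each of the 5 B6 (blue) and 5 D2 (orange) mice, numbered by replicate, with the strain mean as a horizontal bar and the SD as whiskers. The strains overlapped for each of the 6 genes, and B6 replicates 3 and 5 lay above the other B6 mice for Grm2 and Grm8.

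The values of Grm2 and Grm8 moved with the cortical projection neuron markers across mice. The marker level, the mean log2(CPM + 1) of the 8 markers, was 3.53, 3.45, 5.36, 3.90 and 5.36 in B6 replicates 1 to 5 and 4.13, 4.80, 4.89, 4.71 and 4.40 in the D2 replicates, and no strain difference in it was detected (two-sided exact permutation test, p = 0.556). After each strain's mean was subtracted, Grm8 followed this level with Pearson's r of 0.97 (exact permutation p = 0.0017, adjusted p = 0.0085) and Spearman's rho of 0.95 (exact p = 0.0013, adjusted p = 0.0075) over 10 mice. Grm2 followed it with r of 0.96 (exact permutation p = 0.0028, adjusted p = 0.0085) and rho of 0.85 (exact p = 0.0093, adjusted p = 0.028). Without the 2 mice farthest from the median level, B6 replicates 1 and 2, r was 0.99 for Grm8 and 0.93 for Grm2. B6 replicates 3 and 5, with the highest marker levels and the highest values of both genes, were kept. These r values therefore cannot show whether the relation holds without B6 replicates 3 and 5. For Grm3, r was 0.55 and rho 0.75 (exact permutation, adjusted p = 0.302 and 0.0672), and r was 0.93 without B6 replicates 1 and 2. For Grm5, Grm4 and Grm7, r was -0.50, -0.15 and 0.12, and none of these passed the exact test after adjustment over the 6 genes. The markers Cux2 and Lamp5 did not follow the other 6 markers across mice. Within B6 they ran the other way, with their lowest values in replicates 3 and 5. Cux2 stood at 49.6 and 53.0 CPM there, beside 62.5 to 68.4 in the other B6 mice. Lamp5 stood at 68.6 and 68.5, beside 82.7 to 101.7.

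**Figure D3:**
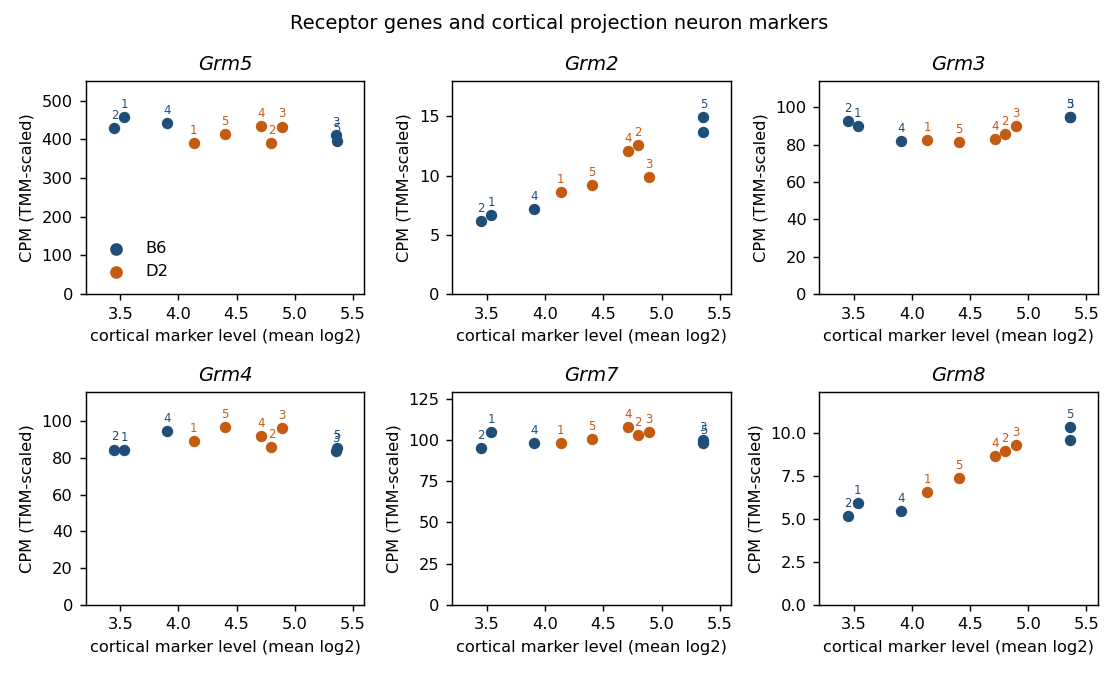
CPM of each receptor gene against the mean log2(CPM + 1) of 8 cortical projection neuron markers, with 1 point per mouse, B6 in blue and D2 in orange, numbered by replicate. Points of Grm2 and Grm8 rise with the marker level, from about the lowest values in B6 replicates 1, 2 and 4 to the highest in B6 replicates 3 and 5.

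The strain contrast of Grm2 and Grm8 depended on which mice entered the fit. With the marker level as a covariate, the log2 fold change of Grm2 was 0.03 (standard error 0.074) and that of Grm8 was 0.08 (standard error 0.063). Without both B6 replicates 3 and 5, a setting added after the data were seen, the log2 fold change was 0.65 for Grm2, 0.57 for Grm8 and 2.07 for Slc17a7. These mice held the highest values of both receptor genes and the other B6 mice the lowest, so leaving them out fixed the direction, and the values are a description with no test. With the covariate, Grm3 was lower in D2 by a log2 fold change of -0.12 and passed the threshold (edgeR, Benjamini-Hochberg adjusted p = 0.0313). Without both B6 replicates 3 and 5, the log2 fold change of Grm3 was -0.06 and did not pass. Grm5, Grm4 and Grm7 passed in neither of these fits.

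**Figure D4:**
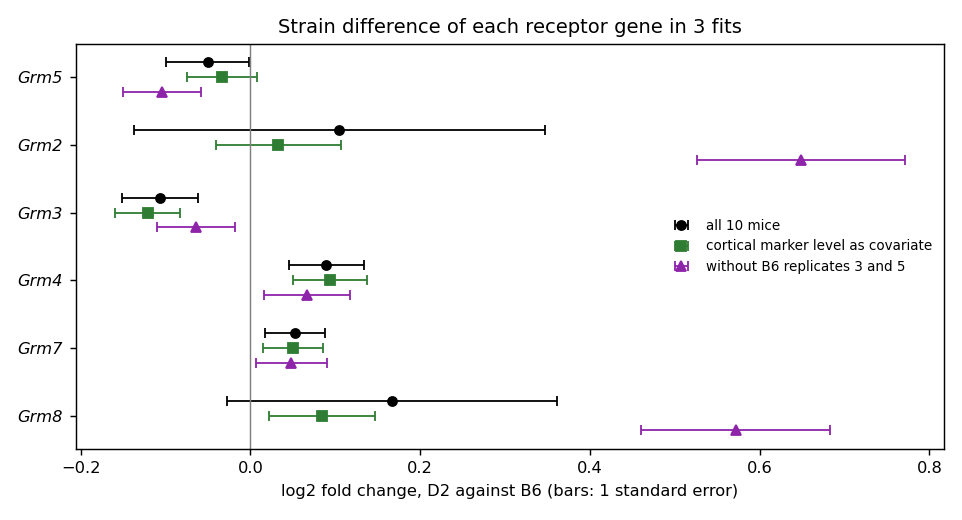
Log2 fold change of each receptor gene, D2 against B6, with 1 standard error, in the fit of all 10 mice, with the cortical marker level as a covariate and without B6 replicates 3 and 5. The third fit was added after the data were seen, and its values of 0.65 for Grm2 and 0.57 for Grm8 follow from leaving out the 2 mice with the highest values of these genes.

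No strain difference was detected in the summed level of the receptors. The summed level of all 6 genes was 85.0 ± 1.82 CPM per kilobase in B6 and 84.3 ± 3.28 in D2 (SD, n = 5 each, two-sided exact permutation test, p = 0.690). The group II sum was 14.8 ± 1.26 in B6 and 13.99 ± 0.587 in D2 (exact permutation p = 0.230, adjusted p = 0.345). The group III sum was 30.3 ± 0.752 in B6 and 31.8 ± 1.03 in D2 (exact permutation p = 0.0397, adjusted p = 0.119 over 3 sums). Grm5 held 46.9% ± 1.95 of the total in B6 and 45.7% ± 0.809 in D2. The share of Grm7 was 19.8% ± 0.412 in B6 and 20.8% ± 0.463 in D2 (exact permutation p = 0.0159, adjusted p = 0.0952 over 6 genes), and that of Grm4 was 14.9% ± 0.816 and 16.0% ± 0.611 (exact permutation p = 0.0476, adjusted p = 0.143). No share or sum passed a threshold of 0.05 after adjustment.

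A transcript on the opposite strand at the start of Grm7 did differ. Gm20387 (ENSMUSG00000092448), an annotated long noncoding RNA, lies on chromosome 6 from 110518097 to 110623691 on the minus strand and shares 600 exonic bases with Grm7. Its values were 4.44, 4.34, 3.79, 4.23 and 3.97 CPM in B6 replicates 1 to 5 and 1.15, 1.29, 1.10, 1.38 and 1.06 CPM in the D2 replicates, so that every D2 mouse lay below every B6 mouse. The mean was 4.15 ± 0.268 CPM in B6 and 1.19 ± 0.134 in D2 (SD, n = 5 each), 3.47-fold lower in D2, and the log2 fold change was -1.80 (standard error 0.094, edgeR, Benjamini-Hochberg adjusted p = 3.2e-08). It was the 1 called gene of 9 in the table whose spans overlap a receptor gene (11.1%, beside 18.3% of all genes), of which 2 averaged at least 100 counts, and it is named after its values were seen. The libraries were stranded, but the strand setting of the counting is not given in the sources used here, so reads of the shared bases cannot be assigned to either gene with certainty.

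The genes of the receptors' pathways were taken from lists, chosen with earlier results of these data known. Of 49 genes measured, 14 (28.6%) differed between strains, 5 higher and 9 lower in D2, beside 18.3% of all genes and 23.8% of genes averaging 100 counts or more. The 5 striatal markers that were lower in D2 moved in the same direction as many of the neuronal genes below, and the part of tissue makeup in these values was not tested.

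Of the 18 partners and effectors of group I receptors, 5 were lower and 0 higher in D2, beside 9.83% of all genes lower. Plcb1, a phospholipase C isoform activated by Gq, stood at 280.4, 257, 343, 291 and 339 CPM in B6 and at 211, 216, 243, 228 and 229.7 in D2. Every D2 mouse lay below every B6 mouse, with a log2 fold change of -0.42 (edgeR, Benjamini-Hochberg adjusted p = 0.00147). B6 replicates 3 and 5 held the highest values of Plcb1, and without both the log2 fold change was -0.29. Shank3, a postsynaptic scaffold that binds Homer proteins, was lower by -0.31 on the log2 scale, from 378 ± 20.8 to 305 ± 9.99 CPM (SD, n = 5 each, edgeR, Benjamini-Hochberg adjusted p = 1.96e-04). Plcb3, another phospholipase C, had a log2 fold change of -0.24, and Ptpn5, the striatal-enriched tyrosine phosphatase, -0.23. The fifth, Homer1, the adaptor that links Grm5 to Shank, had -0.16, was named after its values were seen and overlapped between strains.

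Of the 12 genes of Gi/o signaling and desensitization, 1 was higher and 3 lower in D2, beside 8.50% and 9.83% of all genes. Adcy5, the main striatal adenylyl cyclase, was lower by a log2 fold change of -0.30, from 1244 ± 82.0 to 1014 ± 69.3 CPM (SD, n = 5 each, edgeR, Benjamini-Hochberg adjusted p = 0.00267). Gnao1, which encodes the Go alpha subunit, had -0.20 and Arrb1, an arrestin, -0.16, while the related Arrb2 had 0.18 in the opposite direction. All 4 were without overlap between strains, as were 16.0% of all genes. B6 replicates 3 and 5 held the highest B6 values of Gnao1 and Arrb1, and without both the log2 fold changes were -0.13 and -0.11. Of the 6 PDZ and trans-synaptic partners, Grip1, a scaffold, was higher in D2 by 0.20 on the log2 scale and the other 5 did not pass. Elfn1, which recruits Grm7 to synapses, ranged from 24.5 to 44.0 CPM in B6 and from 32.4 to 61.2 in D2 (edgeR, Benjamini-Hochberg adjusted p = 0.173).

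Among the called genes of these lists, the largest log2 fold changes lay among the enzymes that supply or clear the receptors' ligands. N-acetylaspartylglutamate (NAAG) is a peptide transmitter with selectivity for Grm3 among these receptors, made by synthetases of the Rimkl family and cleaved to glutamate outside the cell by the peptidases encoded by Folh1 and Naalad2. Of 13 genes for glutamate and NAAG supply and clearance, 3 were higher in D2, beside 8.50% of all genes, and 1 was lower. Folh1 stood at 8.32, 7.53, 6.09, 7.03 and 6.33 CPM in B6 replicates 1 to 5 and at 15.6, 13.7, 11.9, 12.4 and 13.2 CPM in the D2 replicates. The strains did not overlap, and the log2 fold change was 0.92 (standard error 0.096, edgeR, Benjamini-Hochberg adjusted p = 1.62e-05).

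Rimkla, a NAAG synthetase, stood at 31.6, 32.5, 22.8, 29.7 and 23.6 CPM in B6 and at 45.6, 37.0, 38.6, 36.5 and 40.4 CPM in D2. No D2 mouse was as low as any B6 mouse, with a log2 fold change of 0.50 (edgeR, Benjamini-Hochberg adjusted p = 0.00368), whereas Rimklb, the related synthetase, had 0.10 and did not pass. The difference between the 2 synthetases was not tested. B6 replicates 3 and 5, the libraries with the most cortical marker RNA, held the lowest values of both. Without these 2 mice, the log2 fold change of Rimkla was 0.34. Naalad2 was higher in D2 by 0.52 (edgeR, Benjamini-Hochberg adjusted p = 0.024), but the strains overlapped and the call was lost in 5 of the 10 fits that left out 1 mouse, those without B6 replicates 2, 4 or 5 or D2 replicates 1 or 3.

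Glul encodes glutamine synthetase, the astrocytic enzyme that converts glutamate to glutamine. Its values were 1070.4, 1187, 1220.1, 1063 and 1253 CPM in B6 replicates 1 to 5 and 760.1, 706, 723, 667 and 740.0 CPM in the D2 replicates. All D2 mice lay far below all B6 mice, and the log2 fold change was -0.69 (standard error 0.056, edgeR, Benjamini-Hochberg adjusted p = 1.66e-06). The astrocytic glutamate transporter genes did not pass, with log2 fold changes of 0.08 for Slc1a2 and -0.06 for Slc1a3. Among the astrocyte markers, summed levels overlapped between strains, as given above for Grm3.

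**Figure D5:**
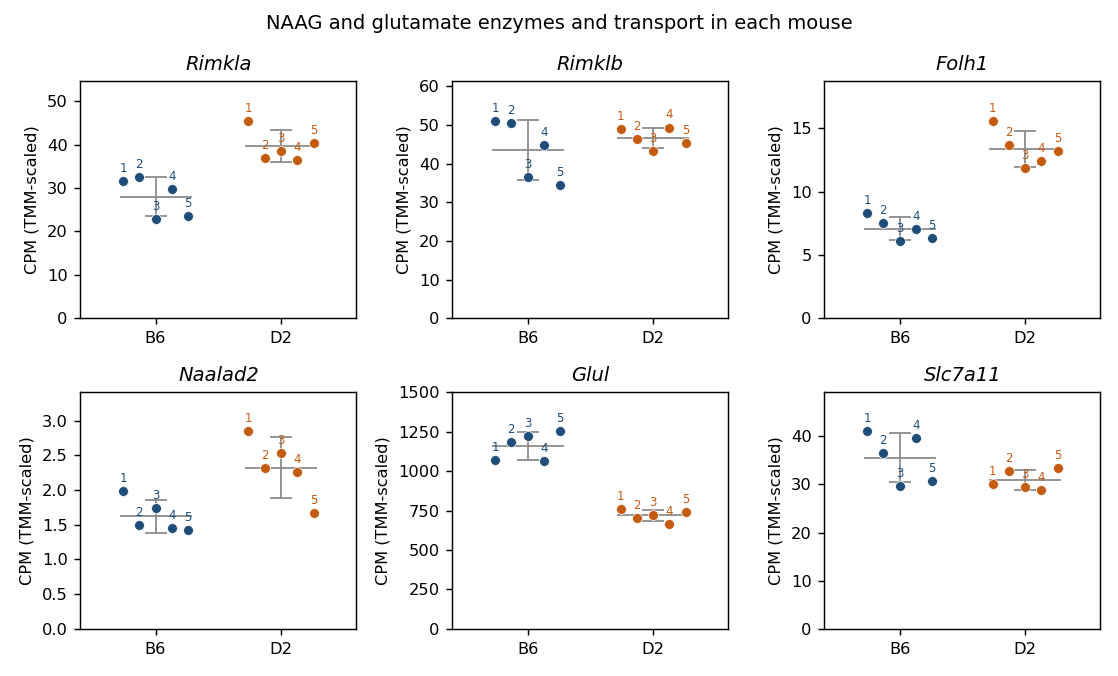
CPM of 6 genes for NAAG and glutamate synthesis, cleavage or transport in each B6 (blue) and D2 (orange) mouse, numbered by replicate, with strain mean and SD. Rimkla and Folh1 were higher and Glul lower in every D2 mouse than in every B6 mouse, whereas values of Rimklb, Naalad2 and Slc7a11 overlapped.

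For each receptor the 3 genes with the most similar pattern over the 10 mice were listed among 15331 genes, by Pearson's r after the strain means were subtracted. For Grm2 these were Sidt1 (r = 0.997), Vxn and Mpped1, and for Grm8 they were Tmem132b (r = 0.995), Rasal2 and Nwd2. Grm2 and Grm8 themselves had r of 0.951, the highest of the 15 receptor pairs. The closest genes were Kpna4 for Grm5 (r = 0.942), Dgki for Grm3 (r = 0.953), Qrich1 for Grm4 (r = 0.947) and Hells for Grm7 (r = 0.943). These values describe 10 libraries and were not tested.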

How the data were processed

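Per the labels and methods of the study, polyadenylated RNA of each mouse was sequenced from stranded libraries, aligned to GRCm39 with STAR 2.7.10b, handled with SAMtools 1.6 and counted with featureCounts, and genes with a median of 0 were removed. GRCm39 is the C57BL/6J reference, and its effect on D2 counts was not tested. The table deposited by the authors holds unnormalized read counts, and 29519 of 29883 genes were found in the GENCODE annotation of the same build, from which positions, merged exon lengths and coding sequences were read. No other per-sample columns were present.

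The strains were compared with edgeR 4.0.16 in R 4.3.3, as a two-sided quasi-likelihood F test with TMM normalization and Benjamini-Hochberg adjustment over all 29883 genes, at a threshold of 0.05. CPM are TMM-scaled. Intervals are 95%. DESeq2 1.42.0, other scalings and filters, a replicate block, a covariate and leaving out mice were alternatives. Shares and sums were compared by exact permutation over 252 assignments of mice (smallest p 0.0079), and correlations over 14400 within-strain arrangements. The receptors and the lists of genes were chosen with earlier results of these data known. Of each list, up to 4 called genes with the largest log2 fold change and a mean of at least 100 counts are named. Genes named outside this rule are Homer1, Gm20387, Elfn1, Rimklb, Slc1a2, Slc1a3, Slc7a11 and the markers. B6 replicates 3 and 5, the closest libraries of a strain, differed by a mean chi-square of 4.89 per gene, beyond sampling noise. They were far more alike than any other pair within a strain. The next closest, D2 replicates 3 and 5, differed by 17.5, and the other B6 pairs by 19.1 to 119. A planned result on another gene is not reported here.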

Additional observations from a re-analysis of the deposited data

Results flagged for a closer look

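In 58 groups of 5 mice tested for a mouse far from the rest, 2 had such a mouse, where chance gives about 1 in 20. Grm4 stood at 94.7 CPM in B6 replicate 4, beside 83.7 to 85.5 in the other B6 mice. Grip1 stood at 31.9 CPM in B6 replicate 1, beside 29.2 to 29.96 in the other B6 mice.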

How the results depend on the processing

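Values below are D2 against B6. With the cortical marker level as a covariate, 7845 genes were called (5478 without it), 3924 of them higher in D2, 1 receptor gene was called (Grm3, -0.12), and the calls were 9 for the group I list, 2 for the PDZ list and 8 for the glutamate and NAAG list. Under total counts the summed level of all 6 receptors differed by 1.12 CPM per kilobase. Without both B6 replicates 3 and 5, a setting added after the data were seen, 2 receptor genes were called (Grm2 at 0.65 and Grm8 at 0.57, a direction that the choice of these mice fixes), and the glutamate and NAAG list had 7 calls. At an adjusted p under 0.01, 3415 genes were called, 1579 higher and 1836 lower, beside 5478, 2541 and 2937. The Grm7 share differed by 0.722 points without length scaling and 0.775 with coding length (exact permutation, adjusted p = 0.0476 for both), and its log2 ratio to the other receptors by -0.017. Of the calls, 53.6% were lower in D2, and 45.0% under total counts. The cause of these shifts was not tested.

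Leaving out 1 mouse at a time gave 0 to 1 receptor genes called, -0.023 to 0.31 for Grm2 and -0.14 to -0.094 for Grm3. The share differences ranged from -0.019 to 0.36 points for Grm2 and from 0.867 to 1.41 for Grm4, which passed without B6 replicate 4 (exact permutation). The summed level differed by -1.61 to 0.267 for all 6 receptors and by 1.23 to 1.85 for group III, which passed without D2 replicate 1. Grm4 over Grm3 ranged from -0.015 to 0.033.

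With the replicate number as a block, 4731 genes were called and no receptor gene. Correlations of same-numbered mice differed in sign, from -0.44 to 0.40, so they do not settle whether the numbers pair the mice. The standard errors of Grm2 and Grm8 were 0.24 and 0.19 with strain alone and 0.24 and 0.17 with the replicate block. They were 0.074 and 0.063 with the covariate, and the cause of this difference was not tested. Counts do not measure receptor protein.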
